A study of Homo sapiens with 15 samples.

Results

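The metallothionein genes MT2A, MT1E, MT1F, MT1G, MT1M and MT1X were followed together with MTF1 and SLC30A1 in bulk RNA-seq of 143B cells, an established human osteosarcoma cell line. These 8 genes were the rows of both deposited count tables whose Ensembl identifier carries one of those symbols in GENCODE 44, out of 62700 genes in each table. All 8 had a row, and 7 passed the filter on low counts in both tables, since MT1G had 0 counts in every library. There were 15 libraries, with 3 for each of 5 conditions. Non-OSCs were wild-type cells grown adherent in DMEM with fetal bovine serum and sodium pyruvate. OSCs, the cells that the study treats as osteosarcoma stem cells, were wild-type cells grown as spheres in serum-free DMEM/F12 with B27 supplement lacking vitamin A, GlutaMAX, EGF and basic FGF. The other 3 conditions, called the hairpin conditions below, were sphere cultures. They carried a lentiviral control that the study calls shControl (shCtrl, labelled wild-type) or a lentiviral hairpin against PDK1 (shPDK1#1 and shPDK1#2). PDK1 is a kinase that phosphorylates and inhibits pyruvate dehydrogenase. The study's methods do not describe a hairpin for the control. All libraries come from 1 cell line, and culture format and medium changed together between non-OSCs and OSCs, so that their effects cannot be told apart. The sources do not say whether the replicates were separate cultures, so p-values measure the spread between these libraries, which may be technical.

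Metallothioneins are small cytosolic proteins rich in cysteine that bind zinc and copper and buffer their free concentration. When free zinc rises, the zinc-finger factor MTF1 binds metal response elements in the promoters of metallothionein genes and of SLC30A1, which encodes the zinc exporter ZnT1 of the plasma membrane. MT2A is usually the most abundant human metallothionein, and its gene also responds to glucocorticoids and to oxidative stress.

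Library totals ranged from 7992499 to 11256536 counts. In the knockdown libraries, PDK1, the targeted gene, had 426, 445 and 357 counts with shCtrl, 233, 266 and 306 with shPDK1#1 and 196, 213 and 188 with shPDK1#2. This corresponded to 45.2 ± 1.28, 28.1 ± 0.844 and 19.8 ± 1.65 CPM (counts scaled to a common library size after TMM normalization; SD, n = 3 each), so the hairpin #2 libraries held the least PDK1. Among 7 markers of the osteoblast lineage, VIM, COL1A1, SPARC and RUNX2 were present in every library. ALPL was low at 8 to 28 counts, COL1A2 had at most 16 and IBSP had 0 throughout. Of the defining markers of blood and vessel cells, CDH5 and NKG7 had 0 counts in every library, CD3D at most 1 and PTPRC at most 2. Other genes of these lists were detected at low counts: CD14 at 18 to 23 in non-OSCs, 1 to 5 in OSCs and 5 to 12 in the hairpin libraries, CD74 at 0 to 6 in the first table and 5 to 22 in the hairpin libraries, PECAM1 at 0 to 15 and VWF at 0 to 4. The epithelial marker EPCAM had 8 to 44 counts and CDH1 at most 1. The 3 osteoclast markers, mostly MMP9, summed to 27.5 to 30.7 CPM in non-OSCs, 77.4 to 80.8 in OSCs, 51.3 to 56.2 with shCtrl, 34.5 to 42.8 with shPDK1#1 and 22.3 to 26.5 with shPDK1#2. The pericyte markers, mostly ACTA2, summed to 4.24 to 5.25 CPM in non-OSCs and 20.5 to 23.7 CPM in OSCs. In the hairpin libraries the pericyte markers summed to 15.2 to 22.1 CPM. Of the other markers in these 2 lists, ACP5 had at most 5 counts and RGS5 at most 12 in any library, while CTSK had 8 to 77. All libraries were made from the same established osteosarcoma cell line, so these counts are not read as other cell types. The relation of these markers to the results that follow was not tested.

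The 6 metallothionein genes lie in a cluster on chromosome 16 of GRCh38, each with 3 exons. MT2A (ENSG00000125148.7) runs from 56608584 to 56609497, MT1E (ENSG00000169715.15) from 56625475 to 56627112, MT1M (ENSG00000205364.4) from 56632659 to 56633981 and MT1F (ENSG00000198417.7) from 56657731 to 56660698. MT1G (ENSG00000125144.14) follows from 56666730 to 56668065 and MT1X (ENSG00000187193.9) from 56682470 to 56684196, so that MT1X starts 73.9 kb after MT2A. All are on the plus strand except MT1G. MTF1 (ENSG00000188786.10, 37809574 to 37859592, 11 exons) and SLC30A1 (ENSG00000170385.10, 211571568 to 211579161, 2 exons) lie on the minus strand of chromosome 1.

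The coding sequences of the 5 detected metallothioneins are shown because their likeness limits what a short read can assign. They are taken from the GRCh38 genome at the coding exons of GENCODE 44, and capitals mark the bases that differ from MT2A.
MT2A: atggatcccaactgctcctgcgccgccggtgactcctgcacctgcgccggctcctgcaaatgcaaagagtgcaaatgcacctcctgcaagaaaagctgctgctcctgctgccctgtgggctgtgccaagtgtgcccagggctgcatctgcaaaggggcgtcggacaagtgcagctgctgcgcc
MT1E: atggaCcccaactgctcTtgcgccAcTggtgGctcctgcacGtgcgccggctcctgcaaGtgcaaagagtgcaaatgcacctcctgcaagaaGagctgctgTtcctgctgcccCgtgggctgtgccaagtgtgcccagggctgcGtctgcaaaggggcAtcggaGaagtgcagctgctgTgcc
MT1F: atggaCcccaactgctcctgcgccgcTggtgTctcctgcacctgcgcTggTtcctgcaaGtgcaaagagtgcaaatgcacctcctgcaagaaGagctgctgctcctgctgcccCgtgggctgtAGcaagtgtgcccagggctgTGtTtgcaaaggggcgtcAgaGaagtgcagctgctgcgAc
MT1M: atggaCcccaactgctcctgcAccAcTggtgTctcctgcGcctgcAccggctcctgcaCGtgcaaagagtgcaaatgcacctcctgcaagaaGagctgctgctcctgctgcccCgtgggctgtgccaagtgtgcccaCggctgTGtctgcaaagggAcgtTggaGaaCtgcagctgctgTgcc
MT1X: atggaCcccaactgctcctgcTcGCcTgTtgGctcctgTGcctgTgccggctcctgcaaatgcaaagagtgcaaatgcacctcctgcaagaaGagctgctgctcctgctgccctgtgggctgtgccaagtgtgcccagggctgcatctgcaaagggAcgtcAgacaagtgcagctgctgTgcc
Each of these holds 183 bases in 61 codons, of which 20 encode cysteine. MT1E and MT1X differ from MT2A at 14 bases (92.3% identity each), MT1F at 16 (91.3%) and MT1M at 19 (89.6%). Over whole transcripts the genes are better separated. No stretch of 75 bases of MT2A, MT1F or MT1M occurs in a transcript of another gene, and 0.794% of the stretches of MT1E do. For MT1X the share is 36.1%, in MT1G, the pseudogene MT1XP1 and ENSG00000259827, a gene that overlaps 40.8% of the MT1X exons on the same strand. RSEM gave ENSG00000259827, MT1G and MT1XP1 0 counts in all 15 libraries, and all 90 metallothionein values were whole numbers. MT1X is the member whose counts depend most on that assignment.

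The promoters are shown for the metal response elements described above, at which MTF1 is known to bind. Of the 8 genes, 4 had a promoter in the RefSeq table (GRCh38.p14). The 250 bases upstream of each start are given 5′ to 3′ on the strand of the gene, and capitals mark matches to the core of the metal response element, searched as TGCACNC or TGCGCNC on both strands.
MT2A (chr16:56608334-56608583, plus strand): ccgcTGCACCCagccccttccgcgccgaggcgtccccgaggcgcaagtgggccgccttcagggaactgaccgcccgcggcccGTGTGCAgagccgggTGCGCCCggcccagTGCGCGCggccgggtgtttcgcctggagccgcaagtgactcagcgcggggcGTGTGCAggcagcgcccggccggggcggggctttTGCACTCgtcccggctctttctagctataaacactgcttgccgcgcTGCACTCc
MT1X (chr16:56682220-56682469, plus strand): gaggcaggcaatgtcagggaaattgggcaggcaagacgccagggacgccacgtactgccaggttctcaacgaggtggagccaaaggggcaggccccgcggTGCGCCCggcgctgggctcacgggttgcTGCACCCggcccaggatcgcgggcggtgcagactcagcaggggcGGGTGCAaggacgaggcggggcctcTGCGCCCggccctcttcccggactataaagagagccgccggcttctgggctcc
SLC30A1 (chr1:211579162-211579411, minus strand): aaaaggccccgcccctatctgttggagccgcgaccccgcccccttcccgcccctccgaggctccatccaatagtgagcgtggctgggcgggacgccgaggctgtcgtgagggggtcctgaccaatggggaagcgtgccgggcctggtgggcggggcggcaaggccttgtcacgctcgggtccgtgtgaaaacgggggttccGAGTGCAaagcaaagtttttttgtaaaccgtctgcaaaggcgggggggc
MTF1 (chr1:37859593-37859842, minus strand): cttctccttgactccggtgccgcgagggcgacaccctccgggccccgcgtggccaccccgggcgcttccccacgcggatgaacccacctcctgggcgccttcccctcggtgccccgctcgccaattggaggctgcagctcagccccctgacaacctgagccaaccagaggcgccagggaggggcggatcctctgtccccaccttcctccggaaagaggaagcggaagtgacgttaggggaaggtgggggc
MT2A held 7 matches, MT1X 4, SLC30A1 1 and MTF1 0, with no overlap between matches. Of 35116 promoters of this length, 24.8% held at least 1 match, 0.208% at least 4 and 0.0228% at least 7. The core of the antioxidant response element, searched as TGACNNNGC on both strands, had 1 match each in MT2A, MT1X and SLC30A1 and 0 in MTF1, where 10.9% of all promoters held it, and none of these shared a base with a metal response element. MT1H and MT1B, which had 0 counts in every library, held 8 and 3 matches to the metal response element. These matches describe letters in the window and no binding was measured. MT1E, MT1F, MT1G and MT1M had no entry.

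The levels of the genes relative to each other were read per length of transcript, as CPM per kb. MT2A was the highest member in all 5 conditions, with 2282 ± 179 CPM per kb in non-OSCs, 905 ± 61.6 in OSCs, 588 ± 47.2 with shCtrl, 626 ± 45.6 with shPDK1#1 and 593 ± 30.3 with shPDK1#2 (SD, n = 3 each). The gene next in this order differed between the cultures. In non-OSCs it was MT1E at 176 ± 5.61 CPM per kb, ahead of MT1X at 53.3 ± 3.63. In OSCs it was MT1X at 113 ± 5.45 CPM per kb, ahead of MT1E at 65.6 ± 4.32, and MT1X also led MT1E in the 3 hairpin conditions. The libraries of these neighbours did not overlap in any condition, but the order of MT1E and MT1X in the sphere conditions rests on the length of the 704-base MT1E transcript used. In CPM both genes overlapped in OSCs (46.2 ± 3.04 and 45.5 ± 2.20). In CPM the order was turned in the hairpin conditions, without overlap, with means of 37.2, 43.0 and 47.1 for MT1E above 28.2, 31.6 and 33.7 for MT1X with shCtrl, shPDK1#1 and shPDK1#2. MT1F followed in every condition, from 13.7 ± 1.64 CPM per kb in non-OSCs to 34.7 ± 3.22 in OSCs. MT1M, SLC30A1 and MTF1 closed the order between 4.65 and 12.7 CPM per kb, and the libraries of MT1M overlapped those of SLC30A1 in non-OSCs, OSCs and shPDK1#1. MT1G stayed at 0 counts in each of the 15 libraries, which allows a level of up to 0.268 to 0.373 CPM, the worth of 3 counts in each library. These limits cover counting error only. Each table was normalized by itself, so levels of the 5 conditions stand side by side and were tested only within a table.

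**Figure D1:**
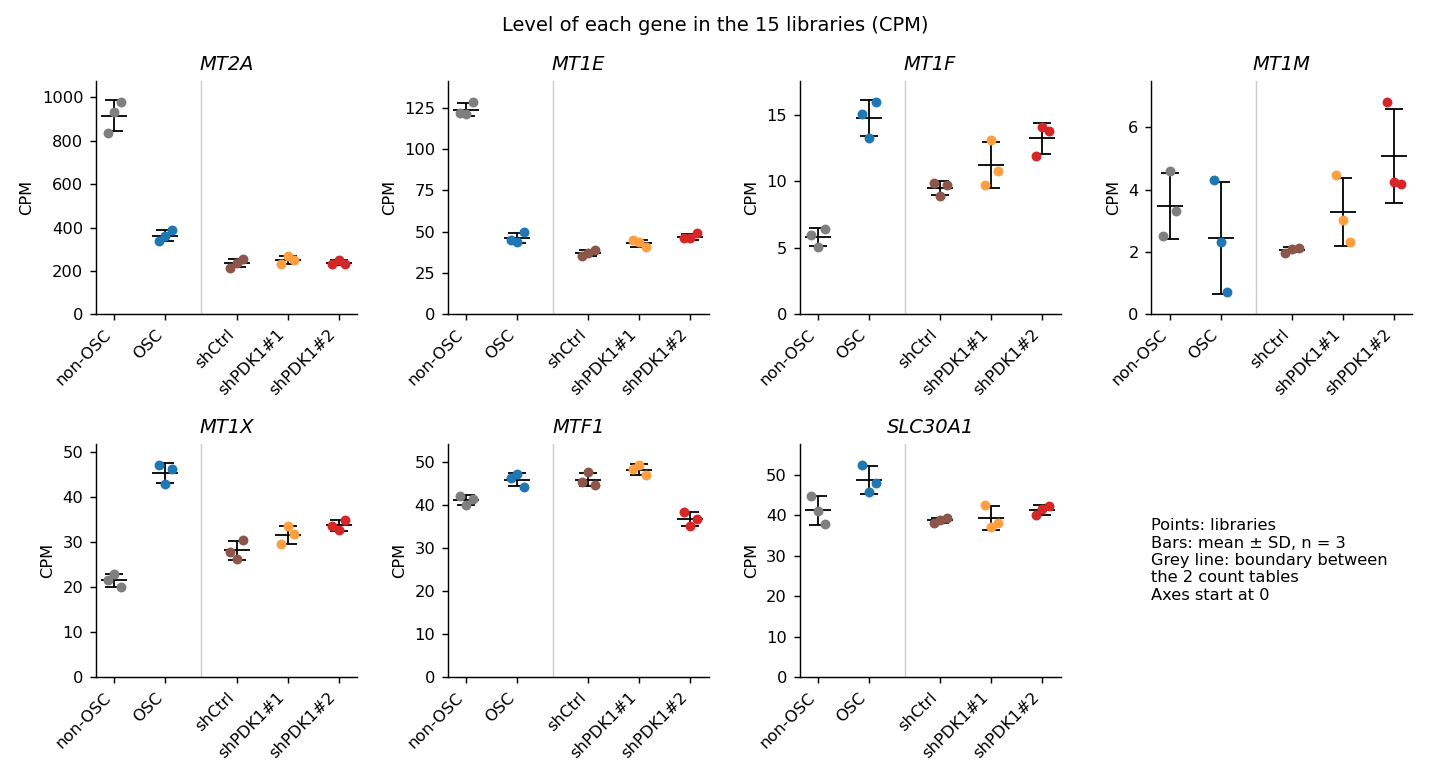
Level in CPM (linear axes from 0) of the 7 detected genes in each of the 15 libraries, by condition. Points are libraries, bars are the mean ± SD (n = 3), and the grey line parts the count tables. MT2A and MT1E stand far higher in non-OSCs than in any sphere condition, MT1F and MT1X are lowest there, and MTF1 is lowest with shPDK1#2.

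Between OSCs and non-OSCs, the detected metallothioneins moved in opposite directions. MT2A and MT1E were lower in OSCs, MT1F and MT1X were higher, and SLC30A1 was slightly higher. At an adjusted p under 0.05 (edgeR's quasi-likelihood test, Benjamini-Hochberg adjustment over 14287 genes), 5 of the 7 tested members differed, where 63.9% of all tested genes did. Of these, 3 were higher (32.4% of all genes) and 2 lower (31.5% of all genes), so the shares of members are close to those of the whole table. Statements below that the libraries of 2 groups lay apart describe 3 against 3 libraries. The share of all genes separated in this way was not counted. The median log2 fold change of the 7 members was 0.16, beside -0.0053 over all genes.

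MT2A had 8678, 8506 and 8873 counts in the non-OSC libraries and 2750, 3574 and 3213 in the OSC libraries. In CPM these were 837, 931 and 978 in non-OSCs against 339, 362 and 388 in OSCs. All 3 OSC libraries lay far below all 3 non-OSC libraries. The means were 363 ± 24.7 and 915 ± 71.7 CPM, a ratio of 0.396, or -1.33 as log2 fold change (SE, the standard error, 0.0545, adjusted p = 4.91e-15). In bulk RNA, fewer cells that express a gene and less RNA per cell cannot be told apart. MT1E, a neighbour of MT2A in the cluster, had 122, 121 and 128 CPM in non-OSCs and 44.8, 44.01 and 49.6 CPM in OSCs. Its groups were also fully apart, and its log2 fold change was -1.42 (SE 0.0673, adjusted p = 5.86e-14), close to that of MT2A.

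MT1X and MT1F moved the other way. MT1X had 21.6, 23.0 and 20.1 CPM in non-OSCs and 47.2, 43.0 and 46.3 CPM in OSCs. Every OSC library was higher than every non-OSC library, with a ratio of 2.11 (log2 fold change 1.08, SE 0.092, adjusted p = 1.22e-09). MT1F had 62, 46 and 58 counts in non-OSCs and 122, 131 and 132 in OSCs, or 5.98, 5.03 and 6.39 against 15.03, 13.3 and 15.9 CPM. These groups did not overlap either, and MT1F was higher by 1.34 on the log2 scale (SE 0.161, adjusted p = 2.39e-07). The calls of MT2A, MT1E, MT1F and MT1X held in each of the 6 fits that left out 1 library.

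MT1M was the most variable member. It had 26, 42 and 30 counts in non-OSCs and 35, 23 and 6 in OSCs, so the OSC libraries spread wider than the groups differed. Its log2 fold change was -0.50 (95% interval -1.33 to 0.34, adjusted p = 0.291), and without OSC replicate 1 it was -1.13 with an adjusted p of 0.0318. MT1A, the remaining detected gene of the family, had 50, 31 and 40 counts in the non-OSC libraries and 13, 3 and 17 in the OSC libraries, and its log2 fold change was -1.72 (SE 0.404, adjusted p = 0.000861).

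Along the cluster, the genes that fell and the genes that rose occupied different ends, a pattern noticed after the values were seen. MT2A, MT1E and MT1A, all lower in OSCs, start 0 to 30.1 kb from the start of MT2A, and MT1M, which was not called, lies among them at 24.1 kb. MT1F and MT1X, higher in OSCs, start at 49.1 and 73.9 kb. This pattern along the cluster was not tested.

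The make-up of the metallothionein counts also differed between the cultures. The summed counts of the 6 genes were 1070 ± 74.7 CPM in non-OSCs and 472 ± 26.1 CPM in OSCs, with 3 libraries each. The log2 ratio of these sums was -1.18 and was not tested. MT2A made up 84.6 to 86.1% of these counts in non-OSCs and 75.3 to 77.9% in OSCs. The share of MT1X went from 1.77 to 2.18% in non-OSCs to 9.24 to 10.5% in OSCs, and that of MT1F from 0.464 to 0.605% to 2.86 to 3.34%. The share of MT1E was 11.6 ± 0.626% and 9.79 ± 0.265%. There were 42.7 ± 5.34 counts of MT2A for each count of MT1X in non-OSCs and 7.99 ± 0.704 in OSCs. In the sphere cultures with shCtrl, MT2A held 74.2 to 76.2% and MT1X 8.37 to 9.54%, near the OSC values, while MT1E held 11.6 to 12.2%, above the 9.48 to 9.96% of OSCs and within the 11.2 to 12.3% of non-OSCs. These shares are ratios within a library and do not rest on the normalization of the tables.

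**Figure D2:**
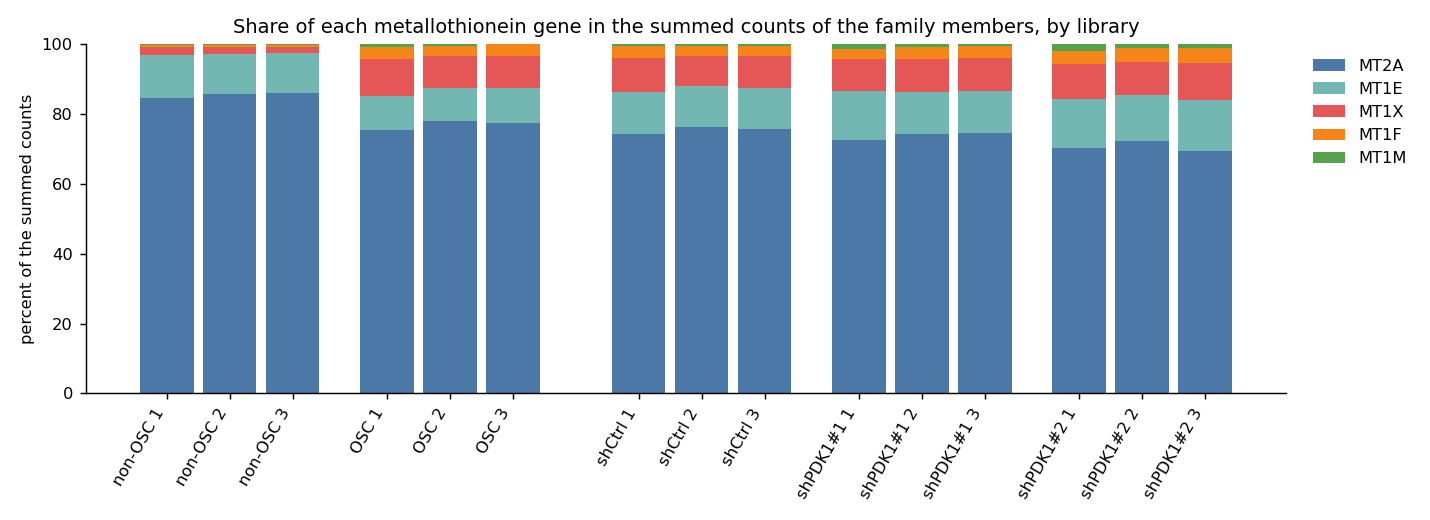
Share of MT2A, MT1E, MT1X, MT1F and MT1M in the summed metallothionein counts of each library, in percent (stacked bars from 0 to 100). MT2A holds over 84% in the non-OSC libraries and between 69.3% and 77.9% in the sphere libraries, where the MT1X band is several times wider.

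The regulator MTF1 and the exporter gene SLC30A1 had smaller fold changes between the cultures than the 4 called metallothioneins. MTF1 had 42.2, 40.1 and 41.4 CPM in non-OSCs and 46.4, 47.2 and 44.2 CPM in OSCs. The log2 fold change of 0.16 (95% interval -0.0073 to 0.32) did not pass the threshold (adjusted p = 0.0884). With library size alone as the scaling it was 0.19, with an adjusted p of 0.0385. SLC30A1 had 44.6, 41.0 and 37.7 CPM in non-OSCs and 52.4, 45.7 and 47.8 CPM in OSCs, so that the lowest OSC library lay just above the highest non-OSC library. Its log2 fold change was 0.24 (SE 0.0863, adjusted p = 0.0206). The call was lost without non-OSC replicate 2 (adjusted p = 0.0537), non-OSC replicate 3 (0.114) or OSC replicate 1 (0.101), with log2 fold changes of 0.23, 0.18 and 0.18.

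**Figure D3:**
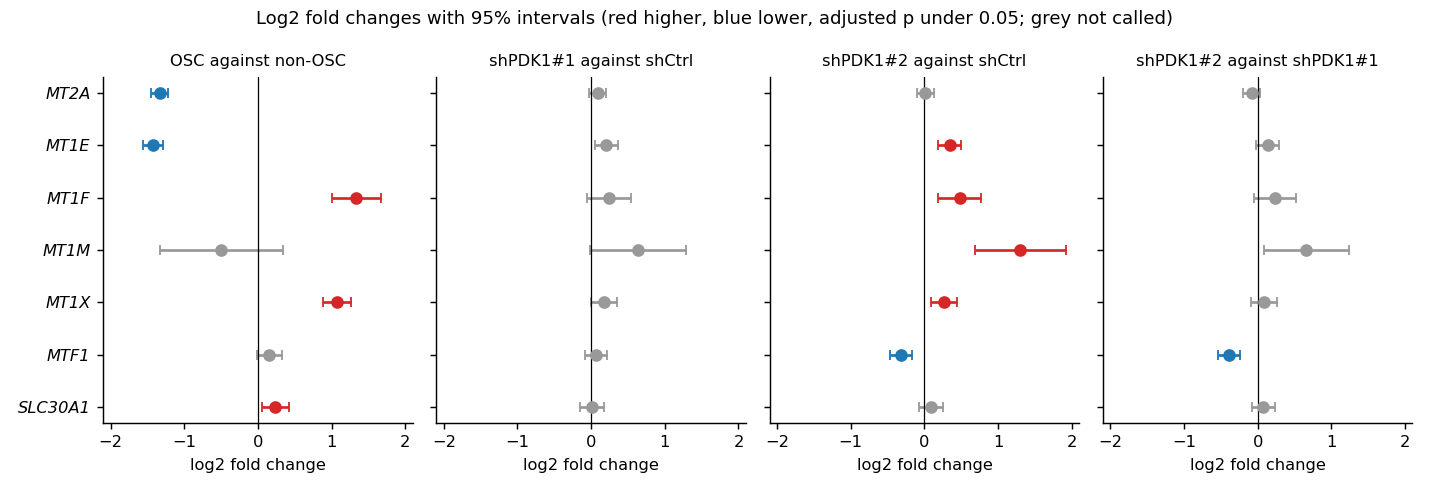
Log2 fold changes of the 7 tested genes with 95% intervals in the 4 comparisons (red higher, blue lower, both at an adjusted p under 0.05; grey not called). The changes between the cultures reach -1.42 and 1.34, those with shPDK1#1 include no call, and those with shPDK1#2 are positive for 4 metallothionein genes and negative for MTF1.

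With shPDK1#1, no member passed the test against shCtrl. The count of calls was 0 of 7 by edgeR and 0 by DESeq2, where edgeR called 3.06% of 14574 genes, 1.62% as higher and 1.44% as lower. At an unadjusted p under 0.05, 1 of the 7 members passed, where 2107 of the 14574 genes did, so the member share was near that of all genes. This member was MT1E, with 35.5, 37.3 and 38.8 CPM with shCtrl and 44.8, 43.5 and 40.7 CPM with shPDK1#1. Its log2 fold change was 0.21 (95% interval 0.049 to 0.37, adjusted p = 0.174). MT2A had 236 ± 18.9 CPM with shCtrl and 251 ± 18.3 with shPDK1#1, a log2 fold change of 0.093 and a 95% interval from -0.022 to 0.21. The intervals of the other members reached 0.54 for MT1F, 0.36 for MT1X, 1.29 for MT1M, 0.22 for MTF1 and 0.17 for SLC30A1, so increases up to these sizes lay within the intervals. MT1M had 3.28 ± 1.098 CPM with shPDK1#1 against 2.06 ± 0.0789 CPM with shCtrl (adjusted p = 0.365).

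With shPDK1#2, the hairpin with the lower PDK1 count, MT1E, MT1F, MT1M and MT1X were higher than with shCtrl and MTF1 was lower, while MT2A and SLC30A1 did not pass the test. Of the 7 tested members 5 were called, where 26.2% of all genes were: 4 higher (12% of all genes) and 1 lower (14.2%). The median log2 fold change of the members was 0.26, beside 0.0083 over all genes. This comparison shares its control libraries with that of shPDK1#1.

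MT1E had 46.1, 46.0 and 49.2 CPM with shPDK1#2 against 35.5, 37.3 and 38.8 CPM with shCtrl. The groups were apart by 0.34 on the log2 scale (SE 0.0755, adjusted p = 0.00124). MT1M, the member with the fewest counts among those tested, had 73, 42 and 40 counts with shPDK1#2 and 18, 21 and 17 with shCtrl. Every shPDK1#2 library was higher, replicate 1 most of all, and the log2 fold change was 1.298 (SE 0.30, adjusted p = 0.00182). Without that replicate it was 1.02, and in the fits that left out 1 library its adjusted p lay between 0.00225 and 0.0298.

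MT1F had 11.9, 14.1 and 13.8 CPM with shPDK1#2, against 9.87, 8.93 and 9.69 CPM with shCtrl, without overlap. Its log2 fold change was 0.48 (SE 0.142, adjusted p = 0.0133), but the adjusted p was 0.0602 without shCtrl replicate 2 and 0.0514 without shPDK1#2 replicate 2. MT1X had 33.5, 32.7 and 35.003 CPM with shPDK1#2, against 27.7, 26.2 and 30.6 CPM with shCtrl. The groups were again apart, with a mean difference of 0.26 on the log2 scale (SE 0.0871, adjusted p = 0.0259). This was the least stable call: the adjusted p was 0.0764 without shCtrl replicate 1, 0.137 without shCtrl replicate 2, 0.0575 without shPDK1#2 replicate 1, 0.0937 without shPDK1#2 replicate 3 and 0.0685 by DESeq2.

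MT2A, in contrast, had 232, 252 and 230 CPM with shPDK1#2 against 216, 239 and 253 CPM with shCtrl, and the libraries interleaved. The log2 fold change was 0.013, with a 95% interval from -0.10 to 0.13 (adjusted p = 0.898). The share of MT2A in the summed metallothionein counts was 69.3 to 72.2% with shPDK1#2, 72.5 to 74.4% with shPDK1#1 and 74.2 to 76.2% with shCtrl. The sum itself was 313 ± 21.8 CPM with shCtrl, 340 ± 21.1 with shPDK1#1 and 337 ± 10.3 with shPDK1#2. MT1A had between 2 and 10 counts with shCtrl and between 10 and 20 with shPDK1#2, a log2 change of 1.24 (SE 0.519, adjusted p = 0.0821). Without shCtrl replicate 2 it was 1.96, with an adjusted p of 0.0377.

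MTF1 was the member that fell. It had 45.5, 47.7 and 44.7 CPM with shCtrl, 48.5, 49.4 and 47.0 with shPDK1#1 and 38.6, 35.3 and 36.8 with shPDK1#2. All shPDK1#2 libraries lay below all shCtrl and all shPDK1#1 libraries. Its log2 fold change was -0.32 against shCtrl (SE 0.0739, adjusted p = 0.00191) and -0.39 against shPDK1#1 (SE 0.0731, adjusted p = 0.000395), and both calls held with each library left out in turn. MTF1 was the only 1 of the 7 members called between the hairpins, where 16.3% of all genes were called, 6.5% as higher and 9.78% as lower. MT1M, at 4.48, 3.04 and 2.32 CPM for hairpin #1 and 6.80, 4.25 and 4.17 CPM for hairpin #2, had a log2 fold change of 0.66 between them (95% interval 0.085 to 1.24, adjusted p = 0.113). Without shPDK1#1 replicate 1 it was 0.93, with an adjusted p of 0.0479. SLC30A1 had 38.2, 38.7 and 39.4 CPM with shCtrl and 40.0, 41.6 and 42.2 CPM with shPDK1#2. Its log2 fold change of 0.089 (95% interval -0.070 to 0.25) was not called (adjusted p = 0.44).

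The genes whose levels followed the summed metallothioneins most closely were ranked among 9846 genes with a mean of at least 10 CPM in both tables, by the lower of their Pearson correlations over the 6 libraries of the OSC table and the 9 of the hairpin table (log2 CPM, prior count 2). MAST3, a microtubule-associated kinase, came first with 0.94 and 0.90. NDUFC1, a subunit of respiratory complex I, had 0.93 and 0.90, and MRPS15, a mitochondrial ribosomal protein, 0.99 and 0.89. SMARCD2, a subunit of the SWI/SNF chromatin remodeller, and ABCC1, a multidrug exporter, followed with 0.97 and 0.88 and with 0.88 and 0.87. These correlations describe libraries that share groups and depth, and MT2A holds most of the sum they follow.

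The other genes of zinc transport were taken as the SLC30 family, which moves zinc out of the cytosol, and the SLC39 family, which moves it in. Of the 7 SLC30 genes tested between OSCs and non-OSCs, 5 were higher and 0 lower, where 63.9% of all tested genes were called (32.4% higher), with a median log2 fold change of 0.40. Beside SLC30A1 these were the genes of the transporters of intracellular compartments, SLC30A9 at 0.43 (71.2 against 52.9 CPM), SLC30A7 at 0.43, SLC30A5 at 0.40 and SLC30A4 at 0.49. SLC30A4 lost its call without non-OSC replicate 3 (0.38, adjusted p = 0.126) or OSC replicate 1 (0.26, adjusted p = 0.259), and the number of SLC30 genes called was 3 in each of those fits. DESeq2 with all libraries did not call SLC30A4 either (0.50, adjusted p = 0.0635). No SLC30 gene was called by edgeR with either hairpin, with 6 tested in each. Of all tested genes, 3.06% were called with shPDK1#1 and 26.2% with shPDK1#2. The unadjusted p of the same test was under 0.05 for SLC30A4 and SLC30A9 with shPDK1#2 and for none with shPDK1#1.

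Of the 11 SLC39 genes tested, 6 were higher and 2 lower in OSCs, again beside 63.9% of all genes called, with a median of 0.37. SLC39A13, SLC39A6 and SLC39A10 rose by 0.75, 0.75 and 0.74 and SLC39A7, a zinc channel of the endoplasmic reticulum, by 0.68. SLC39A9 rose by 0.48 and SLC39A1, a zinc importer of the plasma membrane, by 0.19. SLC39A3 and SLC39A14 fell by 0.71 and 0.20. With shPDK1#2, 1 of these 11 was higher and 4 were lower, beside 12% and 14.2% of all genes, with a median of -0.20. SLC39A14, an importer that carries iron and manganese as well as zinc, fell by 0.35 (SE 0.054, adjusted p = 1.44e-05), from 139 to 108 CPM, and SLC39A6 fell by 0.29. SLC39A13 and SLC39A10 fell by 0.32 and 0.27 and SLC39A3 rose by 0.33, but each of these 3 calls was lost without 1 or more libraries. For SLC39A13 these were shCtrl replicate 1 (-0.26) and shPDK1#2 replicate 3 (-0.24), for SLC39A10 shCtrl replicate 1 (-0.22) and shPDK1#2 replicate 2 (-0.19), and for SLC39A3 shCtrl replicate 3 (0.26). Without shCtrl replicate 1 the number of SLC39 genes called was 3. With shPDK1#1, 0 of the 11 were called by edgeR, beside 3.06% of all genes. The unadjusted p of the same test was under 0.05 for SLC39A1 and SLC39A14. Between the hairpins 3 were lower with shPDK1#2, beside 9.78% of all genes, but 0 without shPDK1#1 replicate 1 or 3 and 1 without shPDK1#2 replicate 1.

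Among 11 genes of copper handling, 4 were higher and 2 lower in OSCs, beside 63.9% of all genes called, with a median of -0.0058. ATP7A, the copper-exporting ATPase, rose by 1.79 (SE 0.106), from 13.8 to 48.2 CPM, and ATOX1, which delivers copper to it, by 0.41. SLC31A2 rose by 1.40, from 1.43 to 3.79 CPM. ATP7B rose by 0.29, a call at the threshold (adjusted p = 0.0499 in edgeR's test) with overlapping libraries. SCO1, a copper chaperone of cytochrome c oxidase, fell by 0.99 and COX11 by 0.33. With shPDK1#2, 1 of these genes was called, beside 26.2% of all genes. This was ATOX1, at -0.25 (adjusted p = 0.00397 in edgeR's test). The count of calls was 2 without shCtrl replicate 1 or without shPDK1#2 replicate 2.

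**Figure D4:**
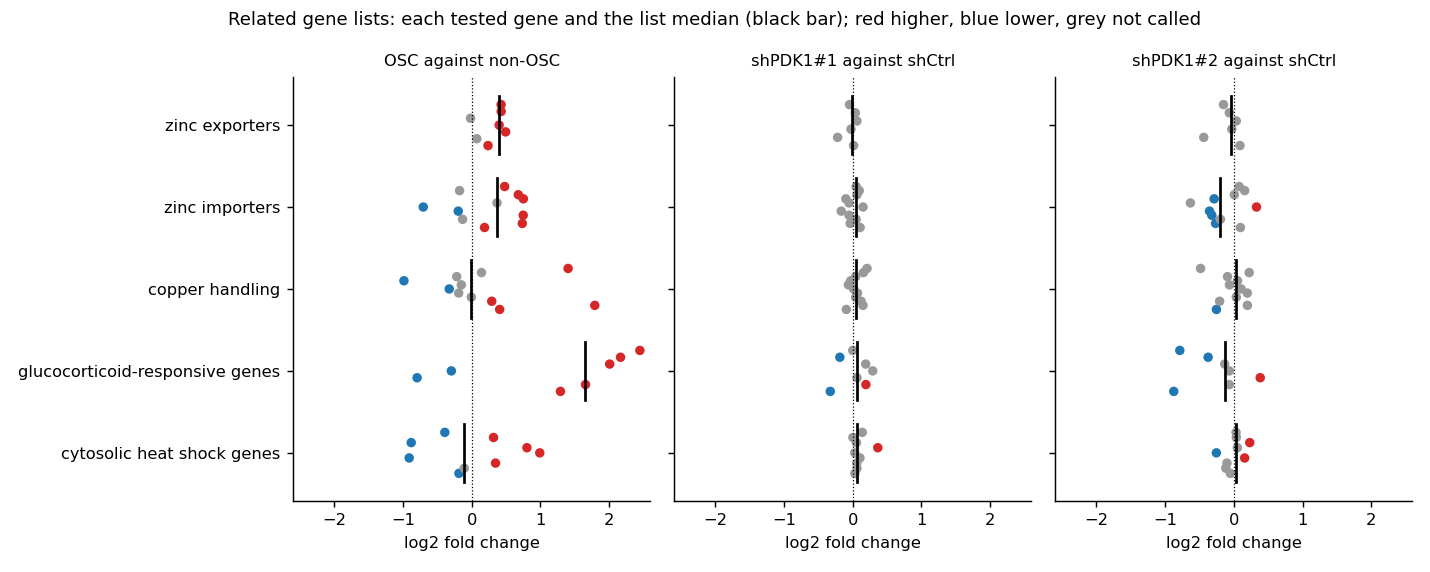
Log2 fold change of every tested gene in the related lists for the 3 comparisons with a control (red higher, blue lower, grey not called), with the median of each list as a black bar. In OSCs the zinc exporters have a median of 0.40 and the zinc importers one of 0.37, and with shPDK1#2 the zinc importers have a median of -0.20.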

How the data were processed

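Total RNA of 143B cells was sequenced as paired-end libraries (NEBNext Ultra kit, NovaSeq). The authors deposited gene-level expected counts, estimated by RSEM, in one table for OSCs and non-OSCs and another for the hairpin libraries. The submitters' processing notes name Trimmomatic 0.39, STAR 2.7.11a, RSEM 1.3.3 and GRCh38.p14, while the annotation and the strand setting are not given in the sources used here. RSEM divides reads that match several genes by an estimate, so 6.85% and 6.92% of the values in the tables were not whole.

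Libraries were grouped by their labels. Expected counts were rounded, and each table was normalized by itself (TMM factors 0.981 to 1.02), filtered with filterByExpr and fitted with edgeR 4.0.16 (quasi-likelihood test, limma 3.58.1, R 4.3.3), in 1 model for the 6 libraries of the first table and 1 for the 9 hairpin libraries. P-values were adjusted by Benjamini-Hochberg over all genes tested, with a threshold of 0.05. The scripts were tested on simulated data. Between replicate libraries the chi-square of the counts was 1.95 to 3.70 times its degrees of freedom, so none was counted as a repeat. Replicate numbers were not used as pairs in the main fits. The correlations of same-numbered deviations over all tested genes lay between -0.0539 and 0.0948. These deviations hold counting noise, so the correlations cannot decide whether libraries were paired. Library totals limit the precision of scarce genes, and a count of 0 was read as up to 3 counts.

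Transcript lengths, exons and coding sequences came from GENCODE 44 and promoters from RefSeq. Tables and figures were made with Python 3.11.15, pandas 2.3.3 and matplotlib 3.10.9. The members and the gene lists (metallothionein family, zinc exporters and importers, copper handling, glucocorticoid-responsive genes, cytosolic heat shock genes and cell type markers) were chosen with earlier results of these data known. All members are named, and other genes are named from these lists where they passed the threshold or, for likeness to the summed metallothioneins, as the top 5. Alternatives were DESeq2 1.42.0, library size alone, 2 other filters on low counts, the replicate number as a block, fits of only the compared groups, a sum over all family rows, and leaving out each library.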

Additional observations from a re-analysis of the deposited data

Results flagged for a closer look

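MTF1 responded differently to the hairpins. Its log2 fold change against shCtrl was 0.069 with shPDK1#1 and -0.32 with shPDK1#2. The difference of -0.39 was tested directly, as shPDK1#2 against shPDK1#1 in edgeR's quasi-likelihood test (standard error 0.0731, adjusted p = 0.000395), and all 3 shPDK1#2 libraries lay below all 3 shPDK1#1 libraries. Between the hairpins 16.3% of all tested genes were called, 9.78% as lower, and 1 of the 7 tested members was. A difference between the hairpins was thus not particular to MTF1, and its cause was not tested.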

How the results depend on the processing

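Of 328 recomputed log2 fold changes of members, 311 kept their direction and their side of the threshold, 10 lost their call, 3 gained one and 4 turned in direction, all of the last among changes that were not called. For SLC30A1 with shPDK1#1, the value was -0.000295 with library size alone and, with 1 library left out, between -0.046 (without shPDK1#1 replicate 1) and 0.0495 (without shPDK1#1 replicate 2). For MT2A with shPDK1#2, it lay between -0.048 (without shCtrl replicate 1) and 0.065 (without shCtrl replicate 3), and was -0.029 without shPDK1#2 replicate 2. With 1 library left out, the members called numbered 4 to 5 for OSCs, 0 to 0 for shPDK1#1, 3 to 5 for shPDK1#2 (3 without shCtrl replicate 2) and 1 to 2 between the hairpins (2 without shPDK1#1 replicate 1), and the genes called with shPDK1#1 numbered 245 to 508 beside 446 with all libraries (245 without shPDK1#1 replicate 3, 270 and 282 without shCtrl replicate 1 or 2). The log2 ratio of the summed metallothioneins in OSCs stayed between -1.24 and -1.14 under every alternative run. With the replicate block, the members called were 5 for OSCs, 0 for shPDK1#1, 5 for shPDK1#2 and 1 between the hairpins, and the genes called were 9420, 507, 3943 and 2522 beside 9126, 446, 3812 and 2374 without it. Under the filter of at least 10 counts in every library, MT1M could not be fitted between OSCs and non-OSCs. Depth limits MT1M and MT1A most, and MT1G was below 3 counts throughout.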

Other observations

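The glucocorticoid-responsive genes were examined because the MT2A promoter responds to glucocorticoids. In edgeR's quasi-likelihood test, all 7 tested genes of this list differed between the cultures, with 5 higher and 2 lower in OSCs and a median log2 fold change of 1.66, where 63.9% of all genes were called (32.4% higher, 31.5% lower). TSC22D3, a leucine zipper protein known as a glucocorticoid target, had 109 against 20.02 CPM (log2 fold change 2.45, standard error 0.0814), and the kinase gene SGK1 had 143 against 31.8 CPM (2.17). The clock gene PER1 was higher by 2.01 and ERRFI1, a feedback inhibitor of the EGF receptor, by 1.66, while FKBP5, a co-chaperone of the glucocorticoid receptor, was lower (-0.79). With shPDK1#2, 1 of the 7 was higher and 3 were lower than with shCtrl, beside 12% and 14.2% of all genes, with a median of -0.13. The phosphatase gene DUSP1 (-0.87), TSC22D3 (-0.79) and SGK1 (-0.37) fell, and FKBP5 rose by 0.38. With shPDK1#1, 1 was higher and 2 were lower (3.06% of all genes were called), and 1 was called without shCtrl replicate 1, shCtrl replicate 3 or shPDK1#1 replicate 3. Between the hairpins, 1 was higher and 6 were lower with shPDK1#2, where 16.3% of all genes were called.

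Cytosolic heat shock genes, which share stress inducers with metallothioneins, moved both ways in OSCs, with 4 of 9 tested higher, 4 lower and a median of -0.11, beside the same 63.9% of all genes. The stress-inducible HSPA1A and HSPA1B rose by 0.99 and 0.80. The chaperone genes HSPA8 and HSP90AA1 fell by 0.88 and 0.91 on the same scale. With shPDK1#2, where 26.2% of all genes were called, 2 were higher and 1 lower, among them HSPA8 at 0.23 and HSP90AA1 at 0.16. HSPA1B was the 1 gene called with shPDK1#1, at 0.36, beside 3.06% of all genes. The count was 0 without any one shCtrl library and 2 with the replicate block or by DESeq2. With shPDK1#1, HSPA1A was at 0.029 and not called by edgeR. How far reads of HSPA1A and HSPA1B can be told apart was not tested. Between the hairpins 1 was higher and 3 were lower (16.3% of all genes were called), and 2 were called without shPDK1#2 replicate 2.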
